A study of Saccharomyces cerevisiae with 32 samples.

Results

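The proteasome genes of budding yeast were followed while cells grown in galactose received glucose or fructose. Genes were taken by symbol: RPN or PRE and a number, RPT1 to RPT6, PUP1 to PUP3, and SCL1. This gave 34 of the 6717 genes in the table. Of these, 33 are subunit or assembly genes, and RPN4, a transcription factor, is described apart from them. All 34 had a mean of at least 1 FPKM (fragments per kilobase and M fragments, M being the SI prefix mega), the minimum for testing that 6203 genes passed.

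The 4 courses were the tps1 strain (DBY12383) with glucose, tps1 with fructose, the wild type (WT, DBY12000) with glucose and WT with fructose. TPS1 encodes trehalose-6-phosphate synthase, and cells lacking it are known to grow on galactose and poorly on glucose or fructose. All cultures were in log phase in yeast nitrogen base medium containing 2% galactose when they were sampled at 0 min, and again 3, 5, 10, 15, 30, 60 and 120 min after sugar was added to 2%. Poly-A RNA was sequenced in 1 library for each strain, sugar and time, 32 in all. The 0 min libraries of a strain are called galactose (n = 2), the times to 15 min early (n = 4 per course) and those from 30 min late (n = 3 per course). The labels give the mutation only as tps1, and nothing in them says that any time was sampled from separate cultures. P-values for changes over time therefore measure the spread between libraries of a phase, pooled over the courses. Those libraries are mostly serial samples of a course, treated as independent. Strain and sugar differences after sugar are tested on the spread of differences at matched times. The strain difference in galactose is tested on the spread of the 0 min libraries.

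TPS1 itself read 0 to 1.18 FPKM in tps1 libraries and 43.2 to 325.7 FPKM in WT libraries. GAL1 and GAL10, markers of growth in galactose, changed late after glucose by 1.45 and 1.401 (log2) in tps1. In WT they changed by -2.68 and -2.18. With equal FPKM sums (below) the rise in tps1 was not called. GAL7 and GAL2, the other markers listed, changed by -0.87 (called) and -0.72 (not called) from early to late in tps1 with glucose. GAL1 and GAL10 changed by 0.60 and 0.75 there, not called. The late change from galactose is given here for GAL1 and GAL10 only, so no rise is stated for GAL7 and GAL2. Late after glucose all of these markers were higher in tps1 than in WT, GAL7 by 1.42 and GAL2 by 2.74. The table gives no fragment counts, and the spacing of its low values put the depth at 3.34 to 8.04 M fragments per library (median 6.51). The lowest value of any proteasome gene in any library was 22.7 FPKM, far above the 0.0888 to 0.3404 FPKM that a fragment on a gene of 1 kb is worth.

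The proteasome degrades proteins marked with ubiquitin. Its core, the 20S particle, is a barrel of alpha and beta rings, and 3 of the beta subunits cut peptide bonds. The 19S particle caps the barrel: a base with 6 ATPases unfolds the substrate, and a lid removes its ubiquitin. Rpn4 activates most of the subunit genes through a promoter element called PACE (proteasome-associated control element), and the proteasome itself degrades Rpn4, which closes a feedback loop.

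The element, written GGTGGCAAA and searched on both strands from 250 bases before to 50 bases after each coding start, was in 27 of 33 subunit and assembly gene promoters (81.8%). Of all 6001 promoters, 72 held it (1.2%). The shorter run GGTGGCA, which every PACE match contains, was in the same number, 27 of 33 promoters, and in 2.88% of all. Each of the 27 promoters held PACE once, beginning 84 (RPT6) to 183 (PUP3) bases before the start. PRE5, PUP1, RPN8, RPN10, RPN13 and RPN14 lacked it. In PRE5, PUP1 and RPN8 the related run AGTGGCAAA was present, which 0.717% of all promoters hold. It was looked for only after the sequences had been read.

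The stretches around the element are shown for genes that moved in opposite directions in tps1, so that the letters can be set against the values below. They are from the RefSeq genome, build R64 (sacCer3), 5′ to 3′ on the gene's own strand, with the element in capitals. First are the 6 genes with PACE that rose most in tps1 late after glucose, listed as gene, position and strand.
PRE2, chrXVI:732168-732228, plus strand: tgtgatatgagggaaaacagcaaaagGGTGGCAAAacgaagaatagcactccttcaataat
PUP2, chrVII:999210-999270, minus strand: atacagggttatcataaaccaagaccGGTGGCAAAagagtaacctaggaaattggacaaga
PRE9, chrVII:761207-761267, plus strand: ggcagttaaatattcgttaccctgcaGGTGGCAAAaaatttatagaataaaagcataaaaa
RPT6, chrVII:411336-411396, minus strand: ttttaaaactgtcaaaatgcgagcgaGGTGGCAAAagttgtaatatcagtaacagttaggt
PRE3, chrX:435019-435079, plus strand: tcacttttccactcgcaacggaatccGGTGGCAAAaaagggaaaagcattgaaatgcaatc
RPT4, chrXV:813786-813846, minus strand: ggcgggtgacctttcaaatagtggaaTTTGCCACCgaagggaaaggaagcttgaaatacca

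Next are the 3 genes with PACE that fell in tps1 late after glucose. They carry the same 9 letters, in PRE4 on the opposite strand.
PRE4, chrVI:249943-250003, minus strand: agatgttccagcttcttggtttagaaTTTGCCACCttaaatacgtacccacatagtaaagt
RPT5, chrXV:544839-544899, plus strand: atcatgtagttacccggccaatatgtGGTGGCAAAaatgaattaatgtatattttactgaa
RPN1, chrVIII:164822-164882, minus strand: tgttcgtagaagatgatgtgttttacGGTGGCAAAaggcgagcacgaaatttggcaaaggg

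The last 3 hold AGTGGCAAA in place of PACE. PRE5 and RPN8 rose in tps1 late after glucose, and PUP1 fell.
PRE5, chrXIII:901536-901596, plus strand: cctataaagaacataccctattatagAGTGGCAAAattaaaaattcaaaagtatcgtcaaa
PUP1, chrXV:631875-631935, minus strand: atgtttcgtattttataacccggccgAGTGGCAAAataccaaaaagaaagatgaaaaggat
RPN8, chrXV:817069-817129, minus strand: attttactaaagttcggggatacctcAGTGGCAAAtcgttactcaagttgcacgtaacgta

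In galactose the levels of the 33 genes lay close together in the strains. The median over the genes, as means of 2 libraries, was 162 FPKM in tps1 and 164 FPKM in WT, against 34.2 FPKM over all tested genes in each strain. PUP3, a beta subunit, was highest (313 FPKM in tps1, 302 FPKM in WT), and RPN14, an assembly chaperone of the 19S base, was lowest (29.4 FPKM in tps1, 27.3 FPKM in WT). None of the 33 was called at an adjusted p under 0.05 by limma with Benjamini-Hochberg adjustment over all tested genes, and 8 of the 6203 genes (0.129%) were. At an unadjusted p under 0.05 there was 1 of the 33, and with median-of-ratios scaling 0 were called. The median log2 difference, tps1 minus WT, was 0.03 over the 33 genes.

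After sugar the strains parted. On the deposited scale, where the median gene is level, the median proteasome gene went up in tps1 and dipped and came back in WT; with equal FPKM sums the tps1 medians lie below 0, as given further on. In tps1 with glucose the median log2 change of the 33 genes from galactose was -0.02, 0.12, 0.30, 0.47, 0.54, 0.66, 0.54 and 0.07 at the 8 times from 0 to 120 min. In tps1 with fructose it was 0.02, 0.13, 0.25, 0.31, 0.37, 0.47, 0.55 and 0.54. On the deposited scale the glucose course was thus highest at 30 min and back near galactose at 120 min, while the fructose course stayed up. As a share of the FPKM sum over all genes the 33 genes did not have this shape. After glucose in tps1 that share was 0.388, 0.419 and 0.352% at 30, 60 and 120 min, against 0.446 and 0.491% in galactose. Short and unannotated genes count in the sum. At 120 min it was 2092867 FPKM over all genes and 1314341 FPKM over annotated genes of at least 300 bp. At 30 min these sums were 2417073 and 1781033 FPKM. The share was not taken over the longer genes alone, so its low value at 120 min is shown for the full sum only. In WT with glucose the median was 0.01, 0.06, -0.03, -0.24, -0.26, -0.29, -0.07 and 0.17. In WT with fructose it was -0.01, 0.08, 0.09, -0.09, -0.07, -0.24, -0.02 and 0.22. All 33 genes lay below galactose in WT at 30 min after glucose, and all 33 lay above it at 120 min.

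The genes moved closely together in WT and spread apart in tps1. The SD of the log2 change over the 33 genes reached 0.717 in tps1 with glucose (60 min) and 0.559 in tps1 with fructose (120 min). It was at most 0.171 in any WT library. Over all tested genes at the same points it was 0.916 in tps1 with glucose and 0.935 in tps1 with fructose, and 0.862 in the WT library with the widest spread of proteasome genes.

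**Figure D1:**
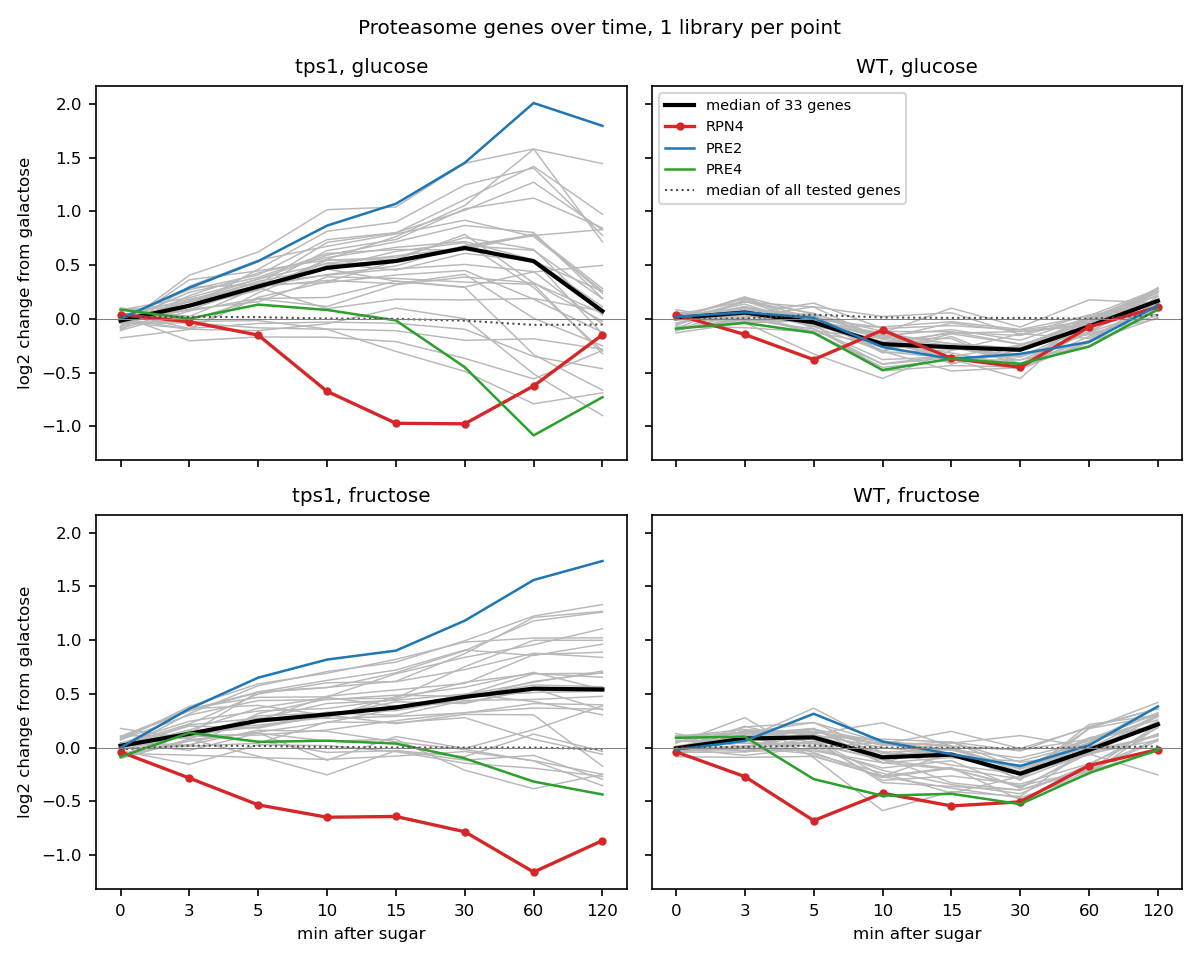
Log2 change from the galactose mean of the same strain (y axis) against minutes after sugar (x axis, evenly spaced times), 1 library per point; grey lines are 33 proteasome genes, with PRE2 and PRE4 in colour, RPN4 in red, the median of the 33 in black and that of all tested genes dotted. In tps1 the lines fan out, with PRE2 at 2.01 and PRE4 at -1.08 at 60 min after glucose, while in WT they stay bundled and RPN4 lies below 0 in both strains from 3 to 60 min. The scale is the deposited one, and with equal FPKM sums the late tps1 medians are below 0 (-0.35 and -0.41).

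The log2 changes are relative to the typical gene, because the deposited FPKM keep the median gene nearly constant. The FPKM sum per library over all genes was 1.51 to 2.58 M in tps1 after sugar and 1.19 to 1.3 M in tps1 in galactose. In WT it was 1.32 to 1.6 M after sugar and 1.32 to 1.37 M in galactose. The scaling to equal sums used another sum, that over annotated genes of at least 300 bp. In tps1 that sum was 930077 and 975549 FPKM in galactose and 1160181 to 1920219 FPKM after sugar. When each library was scaled to the same such sum, the median of all genes moved by -0.49 (tps1 glucose early), -0.76 (tps1 glucose late), -0.46 (tps1 fructose early) and -0.87 (tps1 fructose late). In WT it moved by -0.13, -0.14, -0.20 and -0.27 in the same order. The share of the FPKM sum over all genes taken by the 33 genes was 0.352 to 0.437% in tps1 after sugar and 0.446 to 0.491% in tps1 in galactose. This share was thus lower in every tps1 library after sugar than in either galactose library. In WT it was 0.294 to 0.455% after sugar and 0.42 to 0.425% in galactose. Whether a proteasome gene rose or fell in tps1 therefore depends on the scale for most genes, and the genes called the same way on both scales are named below. Fewer active cells and less RNA per cell cannot be told apart in such bulk samples.

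**Figure D2:**
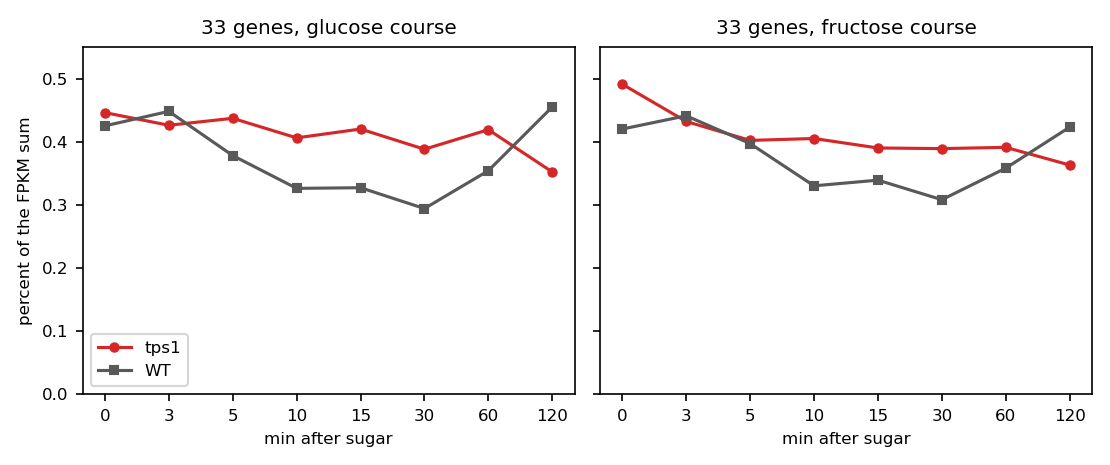
Percent of the FPKM sum over all genes, short ones included, taken by the 33 proteasome genes (y axis, from 0) against minutes after sugar (x axis, evenly spaced times), 1 library per point, tps1 in red and WT in grey. The tps1 libraries after sugar lie between 0.352 and 0.437%, below both tps1 galactose libraries, and the WT libraries are lowest at 30 min.

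In tps1 early after glucose, 10.8% of all 6203 genes were called higher and 711 genes lower. Of the 33 genes, 5 were called higher and 0 lower. They were PRE9 (log2 change 0.77 ± 0.18 SE), PRE2 (0.69 ± 0.21), SCL1 (0.58 ± 0.17), PRE3 (0.55 ± 0.20) and PRE5 (0.53 ± 0.16), 3 alpha and 2 beta subunits of the core. The same 5 symbols were called higher early after fructose, with 0 lower. Of all 6203 genes 9.25% were then called higher and 591 genes lower. After glucose, 1 gene was called without the 10 min library, 1 without the 15 min library, 1 without the galactose library of the fructose course and 0 without that of the glucose course, and 14 were called without the 3 min library. After fructose, 0 were called without the 10 min, the 15 min or either galactose library. Under equal sums 0 were higher and 6 lower after glucose (0.871% and 44.2% of all genes), and 0 higher and 5 lower after fructose (1.31% and 39.4%).

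In tps1 late after glucose, 16 of the 33 genes rose and 4 fell, where 19.9% of all genes were called higher and 24.5% lower. Of the 16, 6 rose at least 2-fold, against 7.48% of all genes. The median log2 change was 0.41 over the 33 genes and -0.03 over all tested genes. The count of 20 called genes was 11 without the glucose course's galactose library and 13 without the 60 min library. Late after fructose 21 rose and 0 fell, where 23.4% of all genes were called higher and 24.0% lower, and 5 of the 21 rose at least 2-fold, against 7.5%. The median was 0.50 over the 33 genes and -0.01 over all tested genes, and 11 were called without the glucose course's galactose library. Scaled to equal sums, the split was 4 higher and 15 lower late after glucose (4.34% and 62.6% of all genes), and 1 higher and 17 lower late after fructose (3.29% and 68.1%). The medians of the 33 genes were then -0.35 after glucose and -0.41 after fructose, still above the all-gene values of -0.76 and -0.87. With that scaling the log2 change had the opposite sign for 9 of the 20 genes called after glucose (RPN13, RPN2, RPN3, RPN5, RPN8, RPT1, RPT2, RPT3 and SCL1), none of them called that way. After fructose it had the opposite sign for 14 of the 21 (PRE1, PRE10, PRE6, PRE7, PRE8, PUP3, RPN10, RPN13, RPN2, RPN3, RPT1, RPT2, RPT3 and SCL1), and 5 of the 14 were called lower. Both late comparisons share the tps1 galactose libraries.

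**Figure D3:**
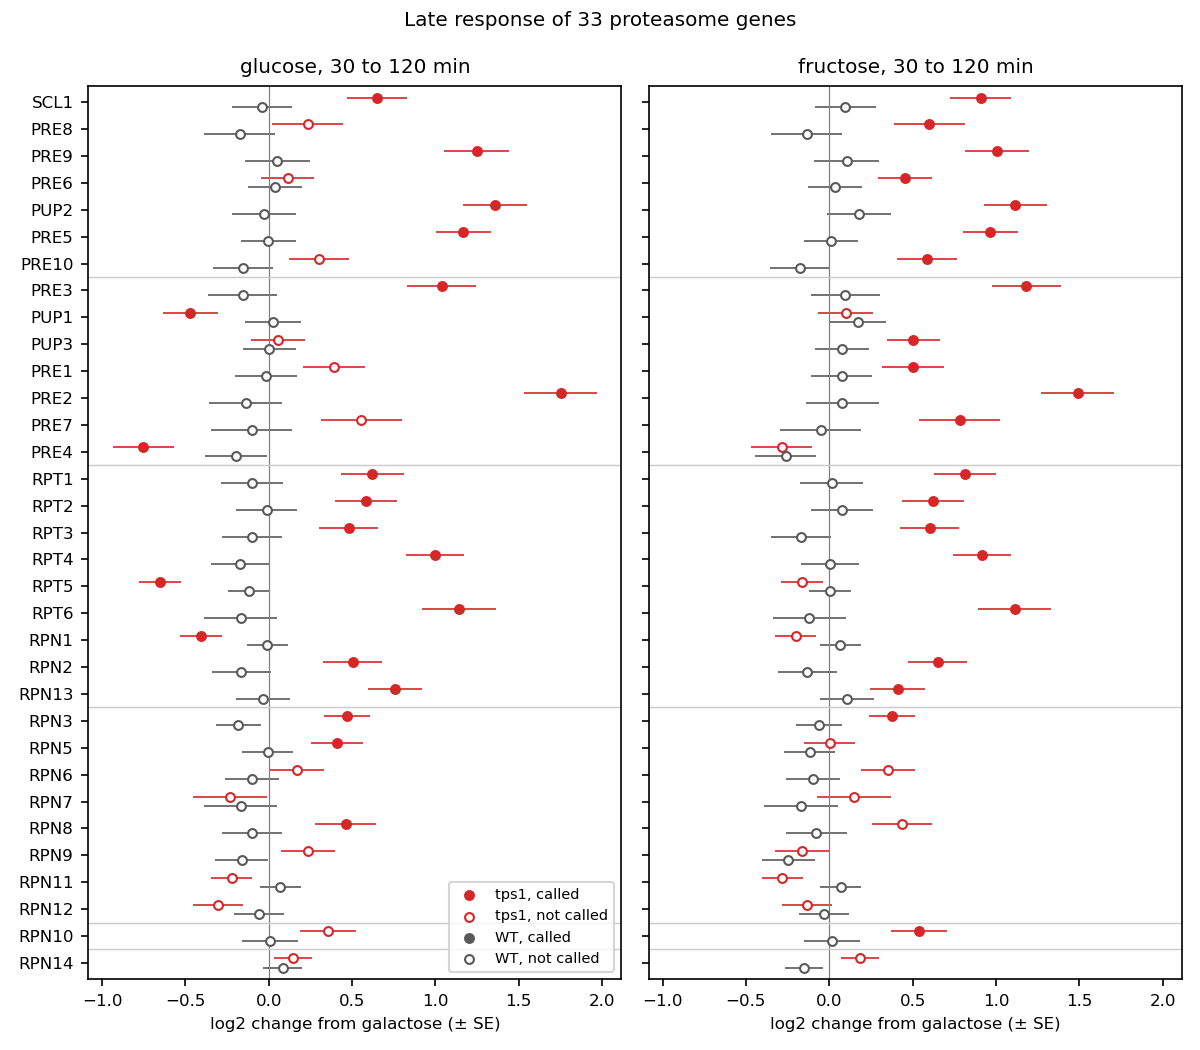
Log2 change from galactose (x axis, mean of 3 late libraries minus mean of 2 galactose libraries, bars are SE) for 33 proteasome genes (rows, grouped from the top as alpha ring, beta ring, 19S base, lid, RPN10 and RPN14), tps1 in red above WT in grey; filled points passed an adjusted p of 0.05. The tps1 points run from -0.75 (PRE4) to 1.75 (PRE2) after glucose, and no WT point is filled. With equal FPKM sums 4 genes were higher and 15 lower after glucose, and 1 higher and 17 lower after fructose.

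The beta ring holds the cutting subunits and also the widest range. PRE2 encodes the subunit with chymotrypsin-like activity. In tps1 with glucose PRE2 had 285, 349, 414, 521, 600, 782, 1150 and 992 FPKM from 0 to 120 min. In tps1 with fructose it had 285, 366, 448, 504, 534, 647, 842 and 952 FPKM. Every tps1 library after sugar lay above both tps1 galactose libraries. In WT with glucose PRE2 had 292, 300, 290, 240, 222, 230, 248 and 314 FPKM, and in WT with fructose 284, 300, 358, 299, 276, 256, 292 and 376 FPKM. The WT values lay on both sides of galactose. The late log2 change in tps1 was 1.75 ± 0.22 after glucose (3.37-fold, limma adjusted p = 1.69e-06) and 1.49 ± 0.22 after fructose (2.81-fold, adjusted p = 1.39e-05). PRE2 was also higher with equal FPKM sums, by 0.98 after glucose and 0.57 after fructose, the only one of the 33 genes called higher on both scales after both sugars.

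PRE3 encodes the caspase-like subunit, and PUP1 the trypsin-like one. PRE3 had 497, 596 and 439 FPKM in tps1 late after glucose and 492, 577 and 621 FPKM late after fructose, against 249 and 244 FPKM in tps1 galactose. Its log2 changes were 1.04 ± 0.21 and 1.18 ± 0.21. The other cutting subunit went the opposite way after glucose. PUP1 had 210.5, 196, 194, 203, 225, 210.0, 147 and 112 FPKM in tps1 with glucose from 0 to 120 min, so only the last 2 times were clearly below galactose. Its late log2 change was -0.47 ± 0.17 (adjusted p = 0.0252), and -0.26 with adjusted p = 0.168 without the 120 min library. The fall also missed 0.05 without the 60 min library and without either galactose library. After fructose the change in PUP1 was 0.10 ± 0.17 (adjusted p = 0.659).

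PRE4 encodes a beta subunit without cutting activity. In tps1 with glucose it had 303, 286, 313, 302, 283, 209, 134 and 172 FPKM from 0 to 120 min. In tps1 with fructose it had 269, 314, 296, 298, 293, 266, 229 and 211 FPKM. All 3 late glucose libraries lay below both galactose libraries and below all early ones. The late log2 change was -0.75 ± 0.18 after glucose (adjusted p = 0.00178) and -0.28 ± 0.18 after fructose (adjusted p = 0.211), and with equal FPKM sums it was -1.52 and -1.20, both called. WT with glucose had 250, 259, 243, 191, 206, 199, 222 and 283 FPKM of PRE4. Of the other beta genes, PUP3, PRE1 and PRE7 were called higher in tps1 late after fructose (0.505, 0.50 and 0.78) and had 0.06, 0.39 and 0.56 after glucose, not called.

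The alpha ring gates the entry to the core. Its 7 genes all rose in tps1 late after fructose, with a median log2 change of 0.91, and 4 rose after glucose, with a median of 0.65. PUP2 had 431, 620 and 564 FPKM in tps1 late after glucose and 380, 480 and 499 FPKM late after fructose, against 220 and 195 FPKM in tps1 galactose. The log2 changes of PUP2 were 1.36 ± 0.19 after glucose and 1.12 ± 0.19 after fructose. PRE9, the alpha gene that yeast can grow without, had 603, 661 and 363 FPKM late after glucose and 436, 447 and 448 FPKM late after fructose, against 210 and 232 FPKM in galactose. PRE9, PUP2 and PRE5 each had their highest value of the glucose course at 60 min. PRE5 rose by 1.17 ± 0.16 after glucose and 0.97 ± 0.16 after fructose, and SCL1 by 0.65 ± 0.18 and 0.91 ± 0.18. PRE8, PRE6 and PRE10 changed by 0.23, 0.11 and 0.30 after glucose, not called, and rose by 0.60, 0.45 and 0.59 after fructose. Under equal sums PRE9, PUP2 and PRE5 were still called higher after glucose, and no alpha gene was after fructose.

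The 6 ATPases of the base split 5 to 1. RPT1, RPT2, RPT3, RPT4 and RPT6 rose in tps1 late after both sugars, by 0.48 to 1.14 after glucose and 0.60 to 1.11 after fructose. RPT6 had 305, 341 and 220 FPKM in tps1 late after glucose and 240, 291 and 308 FPKM late after fructose, against 120 and 137 FPKM in tps1 galactose. RPT5 had 139, 140, 135, 134, 116, 102, 82.4 and 88.5 FPKM in tps1 with glucose from 0 to 120 min. Its late log2 change was -0.66 ± 0.13 (adjusted p = 0.000194), and it was still called lower whichever of the 5 libraries of the comparison was left out, and with equal FPKM sums. After fructose RPT5 changed by -0.17 ± 0.13 (adjusted p = 0.295). None of the ATPases was called higher with equal FPKM sums.

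The scaffold genes of the base also parted. RPN2 rose by 0.50 ± 0.17 after glucose and 0.65 ± 0.17 after fructose. RPN1 had 55.6, 48.6 and 58.5 FPKM in tps1 late after glucose, against 73.5 and 70.6 FPKM in tps1 galactose. RPN1 fell by 0.41 after glucose (SE 0.12, adjusted p = 0.00978), with adjusted p = 0.0552 without the 60 min library and 0.0771 without the glucose course's galactose library. The change after fructose was -0.20, not called. RPN13, a ubiquitin receptor, rose by 0.76 ± 0.16 after glucose and 0.41 ± 0.16 after fructose.

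The lid removes ubiquitin chains from bound proteins. Of its 8 genes among the 33, RPN3, RPN5 and RPN8 rose late after glucose (0.47, 0.41 and 0.46), and RPN3 rose after fructose (0.38). The median over the 8 was 0.20 after glucose and 0.07 after fructose. RPN11, the enzyme that removes ubiquitin, had 105.5, 106.5 and 99.6 FPKM late after glucose and 105, 92.8 and 102 FPKM late after fructose, against 118 and 124 FPKM in galactose, and was not called. With equal FPKM sums 5 of these 8 lid genes were called lower after glucose and 8 of 8 after fructose. Of all genes 62.6% and 68.1% were then called lower. RPN10, a ubiquitin receptor between base and lid, changed by 0.35 after glucose, not called, and rose by 0.54 after fructose. RPN14 had 33.2, 33.5 and 30.8 FPKM late after glucose and 29.1, 32.99 and 38.6 FPKM late after fructose, against 31.5 and 27.2 FPKM in galactose, and was not called.

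In WT none of the 33 genes was called against galactose in either phase. Of all genes 16.3% were called early and 2.81% late after glucose, and 13.5% early and 10.5% late after fructose. Of the 33, 1 had an unadjusted limma p under 0.05 early after glucose, and 0 had one in each of the other 3 comparisons. The count of calls was also 0 with median-of-ratios scaling, and with equal FPKM sums it was 1 (RPT3, lower) late after fructose. Without the 3 min library 1 gene, RPN12, was called lower early after glucose. The medians over the 33 genes were -0.10 early and late after glucose, -0.03 early after fructose and 0.01 late after fructose. The averages over a phase mix the dip and the return described above, so a count of 0 there does not show that the genes stayed level.

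Within a course, late minus early, 8 of the 33 genes were higher and 4 lower in tps1 with glucose (13.4% and 15.3% of all genes), among them PRE2 (1.06 ± 0.18) and PRE4 (-0.80 ± 0.15). In tps1 with fructose 6 were higher and 1, RPN11, lower (8.37% and 7.69%), a count of 7 that was 0 without the 120 min library, 2 without the 60 min, 3 without the 5 min and 4 without the 3 min library. For glucose the 12 became 7 without the 60 min library. On equal sums 3 were higher and 10 lower with glucose (5.72% and 26.4%), and 0 higher and 7 lower with fructose (1.35% and 35.7%). In WT 0 were called by limma with glucose (1.1% of all genes) and 0 with fructose (0.661%), with 0 and 1 at an unadjusted p under 0.05, and 0 and 0 with median-of-ratios scaling.

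Set against WT at the same times, more proteasome transcripts were called higher than lower in tps1 in all 4 comparisons on the deposited scale, but with equal FPKM sums more genes were lower than higher late after either sugar. Early after glucose 25 of the 33 genes were higher in tps1 and 0 lower. Of all 6203 genes 24.8% were called higher and 1660 genes lower. The 8 of the 33 not called were PRE6, PUP1, RPT5, RPN1, RPN2, RPN7, RPN9 and RPN11. Late after glucose 18 were higher and 3 lower (25.8% and 30.4% of all genes), the 3 being RPN1, RPT5 and PRE4. Early after fructose 11 were higher (18.1%) and 0 lower (1281 of the 6203 genes). Late after fructose 22 were higher and RPN1 lower (27.1% and 27.3%). The median differences over the 33 genes were 0.43, 0.49, 0.32 and 0.55 in this order, and 0.00, -0.05, -0.01 and -0.02 over all tested genes. The counts of calls in either direction moved when a time was left out. The 25 became 26, 19, 9 and 8 without 3, 5, 10 and 15 min, and the 21 became 13, 12 and 26 without 30, 60 and 120 min. The 11 became 12, 4, 1 and 0 without 3, 5, 10 and 15 min, and the 23 became 14, 14 and 19 without 30, 60 and 120 min. Under equal sums the counts were 9 higher and 1 lower early after glucose (11.6% and 41.8% of all genes), 7 and 10 late after glucose (11.2% and 55.0%), 3 and 0 early after fructose (9.54% and 30.4%) and 5 and 8 late after fructose (9.51% and 54.5%). PRE2, PRE3 and PRE5 were called higher in tps1 in all 4 comparisons on both scales.

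The strain difference was then taken relative to the strain difference in galactose, which tests whether the strains responded differently. Late after glucose 8 of the 33 genes passed, all higher in tps1. Of all 6203 genes 13.5% were called higher and 960 genes lower. PRE2 differed by 1.89 ± 0.31 (adjusted p = 0.00174), PUP2 by 1.39 ± 0.26, RPT6 by 1.31 ± 0.37, PRE9 by 1.196 ± 0.33, PRE3 by 1.19 ± 0.32, PRE5 by 1.17 ± 0.25, RPT4 by 1.17 ± 0.28 and RPN13 by 0.79 ± 0.26. Late after fructose 6 passed, all higher (13.1% of all genes, with 740 of the 6203 lower), namely PRE2, RPT6, PRE3, PRE5, PUP2 and RPT4. Early, 0 passed in limma after glucose (12.5% of all genes in either direction) and 0 after fructose (2.31%), with 8 and 0 at an unadjusted p under 0.05, and 0 and 0 with median-of-ratios scaling. Without the 3 min pair 8 passed early after glucose. The 8 became 3 and 4 without the glucose or the fructose 0 min pair, 4 without 60 min and 18 without 120 min. The 6 became 0 without either 0 min pair, 3 without 30 min and 2 without 60 min. Scaled to equal sums, 4 were higher and 7 lower late after glucose (5.4% and 41.8%), and 1 higher and 5 lower late after fructose (3.92% and 40.2%), with PRE2 the only gene higher in both.

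Glucose and fructose were compared directly within each strain. In tps1 late, 4 of the 33 genes were higher with glucose (RPN5 0.41, RPN9 0.39, RPN13 0.35, PRE2 0.26) and 7 lower (PUP1 -0.57, RPT5 -0.49, PRE4 -0.47, PUP3 -0.45, RPN7 -0.38, PRE8 -0.37, PRE6 -0.34). Of all genes 15.7% were called higher and 21.2% lower. The 11 became 17 without 30 min and 7 without 60 min, and with equal FPKM sums 9 were higher and 4 lower (18.3% and 12.9%). PUP1, PUP3, PRE8 and PRE6 were lower, and PRE2, RPN5, RPN9 and RPN13 higher, on both scales. In tps1 early 0 were called by limma (2.03% of all genes), in WT early 0 (1.18%) and in WT late 0 (0.419%), with 4 of the 33 at an unadjusted p under 0.05 in each, and 0 in each with median-of-ratios scaling. In tps1 early 1 was called without 3 min, and in WT early 1 (PRE3, lower with glucose) with equal FPKM sums. Early in tps1 the log2 difference between the sugars was 0.01 ± 0.08 for PRE2 and -0.02 ± 0.08 for PRE4.

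On the deposited scale the transcript of RPN4 in tps1 was lowest at times when those of most subunit genes were above galactose. With equal FPKM sums 7 of the 33 genes had a late mean above galactose after each sugar, so most then lay below it, as RPN4 did. In tps1 with glucose it had 58.2, 55.5, 50.8, 35.1, 28.4, 28.3, 36.3 and 51.0 FPKM from 0 to 120 min. In tps1 with fructose it had 55.0, 46.3, 38.8, 35.7, 35.9, 32.5, 24.8 and 30.6 FPKM. Its lowest point came at 30 min after glucose, when the median of the 33 genes was highest on that scale, and at 60 min after fructose. In WT with glucose RPN4 had 58.0, 50.9, 43.1, 52.3, 43.5, 41.0, 53.5 and 61.0 FPKM, and in WT with fructose 54.8, 46.6, 34.8, 41.7, 38.4, 39.4, 50.1 and 55.6 FPKM. WT thus also dipped, and was back near galactose at 120 min.

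RPN4 fell by 0.94 on the log2 scale in tps1 late after fructose (SE 0.23, limma adjusted p = 0.00213), and it was still called lower whichever of the 5 libraries of the comparison was left out. Late after glucose it fell by 0.58 (SE 0.23, adjusted p = 0.0448), but p was 0.0609 with median-of-ratios scaling, and 0.0969 to 0.208 without the 30 min, the 60 min or either galactose library. Early changes of -0.46 after glucose and -0.53 after fructose did not pass (adjusted p = 0.139 and 0.0964), nor did WT changes of -0.14 late after glucose and -0.23 late after fructose (adjusted p = 0.806 and 0.556). Against WT at the same times RPN4 was lower in tps1 late after fructose by -0.70 ± 0.17 (adjusted p = 0.0031) and late after glucose by -0.44 ± 0.17 (adjusted p = 0.0374). The glucose value missed 0.05 without 30 min (0.136) or 60 min (0.157), with median-of-ratios scaling (0.0602) and without matching by time (0.0762). Relative to the strain difference in galactose, -0.70 ± 0.27 after fructose and -0.44 ± 0.27 after glucose did not pass (adjusted p = 0.0652 and 0.219). That difference passed with equal FPKM sums, at -1.32 after fructose and -1.035 after glucose (adjusted p = 0.012 and 0.0304), and without 30 min after fructose (-0.92, adjusted p = 0.0318). In that comparison 40.2% of all genes were called lower with equal sums after fructose, and 41.8% after glucose. The all-gene median was then -0.62 after each sugar. Against tps1 galactose RPN4 fell further on equal sums, by 1.34 late after glucose and 1.83 late after fructose, and both passed. The scaling put the all-gene median at -0.76 and -0.87 there, and 62.6% and 68.1% of all genes were called lower.

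**Figure D4:**
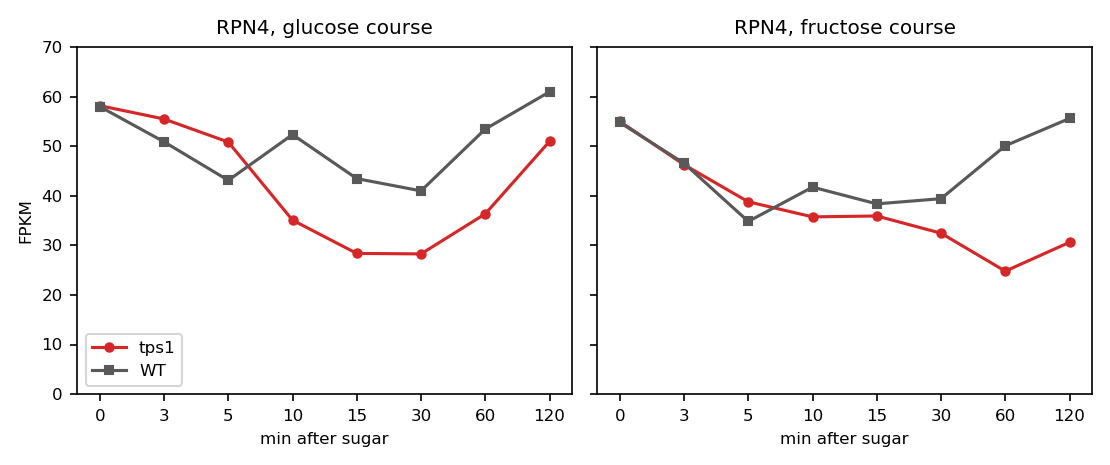
RPN4 transcript level in FPKM (y axis, from 0) against minutes after sugar (x axis, evenly spaced times), 1 library per point, tps1 in red and WT in grey. In tps1 RPN4 reached 28.3 FPKM at 30 min after glucose and 24.8 FPKM at 60 min after fructose, and the late WT points lie above the late tps1 points at each time.

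The RPN4 promoter was read in the same window, from 250 bases before to 50 bases after the coding start, and held no GGTGGCAAA there. Of 4 elements of factors known to act on RPN4 the window held only the heat shock pair TTCNNGAA, once, 21 bases before the coding start. In the same window 12.9% of all promoters hold that element. The RPN4 window held none of TTACTAA (Yap1, 7.45% of promoters), TCCGNGGA (Pdr1 and Pdr3, 1.22%) and AGGGG (stress element, 21.6%). Sites farther upstream were not searched, so their absence from RPN4 is not shown. The site is shown because RPN4 is the regulator whose transcript is compared, in the same build with the element in capitals.
RPN4, chrIV:416711-416740, minus strand: tttcaaaagttTTCTAGAAttttcaagcaa

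Genes for 3 of those elements' factors were listed. HSF1, YAP1, PDR1 and PDR3 changed by -0.31 to 0.27 in tps1 late after glucose, none called. Late after fructose HSF1 rose by 0.34 and PDR1 fell by 0.39, 2 of the 4 genes, where 23.4% of all genes were called higher and 24.0% lower. With equal FPKM sums 3 of the 4 were called lower after glucose and all 4 after fructose, so the direction for HSF1 turned. Of all genes 62.6% and 68.1% were then called lower. UBR2, which encodes the ubiquitin ligase that acts on Rpn4 protein, had 7.9, 12.4 and 15.9 FPKM in tps1 late after glucose, against 3.6 and 3.6 FPKM in tps1 galactose. UBR2 rose by 1.46 ± 0.19 after glucose (adjusted p = 2.74e-06) and changed by 0.43 ± 0.19 after fructose (adjusted p = 0.0622). The change of MUB1, the partner of Ubr2, was 0.05 after glucose, not called, and MUB1 fell by 0.69 after fructose. Rpn4 protein was not measured.

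The responses of genes with and without PACE overlapped. In tps1 late after glucose the 27 genes with PACE ran from -0.75 to 1.75 with a median of 0.41, and the 6 without from -0.47 to 1.17 with a median of 0.40. Late after fructose the medians were 0.59 with PACE and 0.42 without. The other 45 promoters with PACE belong to no proteasome gene of the list, and 43 of those genes were tested. Their median was 0.08 after glucose (-1.17 to 1.47) and 0.02 after fructose (-1.62 to 1.32). These genes were not screened for neighbours whose window covers the same site as a subunit gene. Assembly and ubiquitin genes listed below were not removed from them either. Across the 33 genes, Spearman's rho between the late response and coding length was -0.16 after glucose and -0.26 after fructose, and with the galactose level 0.11 and 0.37. These are descriptions over genes of the same libraries, and genes are not replicates.

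Genes that build and serve the proteasome were listed beside it, and their counts are read against the 19.9% of all genes called higher and 24.5% called lower in tps1 late after glucose, and the 23.4% and 24.0% late after fructose. Of 8 other assembly genes, 3 rose and 1 fell in tps1 late after glucose, and 6 rose and 0 fell late after fructose. UMP1, the maturation factor of the core, had 820, 933 and 558 FPKM late after glucose and 638, 658 and 681 FPKM late after fructose, against 358 and 363 FPKM in tps1 galactose. UMP1 rose by 1.06 ± 0.20 and 0.87 ± 0.20. NAS6, a chaperone of the base, had 68.4, 52.3 and 75.8 FPKM late after glucose, against 149 and 137 FPKM in galactose, and fell by 1.13 on the log2 scale (SE 0.18). NAS6 changed by -0.31 after fructose, not called. Of 6 genes for proteins bound to the proteasome, 2 rose after glucose, SEM1 (0.79) and the activator gene BLM10 (1.06), and after fructose BLM10 rose (0.52) and HUL5 fell (-0.41).

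Of 14 genes for ubiquitin, shuttle factors and Cdc48 with its partners, 7 rose and 1 fell in tps1 late after glucose (19.9% and 24.5% of all genes), and 10 rose and 1 fell late after fructose (23.4% and 24.0%). The polyubiquitin gene UBI4 had 560, 628 and 439 FPKM late after glucose and 569, 661 and 743 FPKM late after fructose in tps1, against 260 and 262 FPKM in tps1 galactose. In WT it had 118, 169 and 251 FPKM late after glucose and 156, 177 and 270 FPKM late after fructose, against 320 and 272 FPKM in WT galactose. UBI4 rose by 1.04 ± 0.40 and 1.32 ± 0.40 in tps1, and the WT values of -0.78 and -0.59 were not called. DDI1, a shuttle gene, rose by 1.56 ± 0.21 and 1.001 ± 0.21 in tps1. RPS31 and RPL40A, whose products join ubiquitin to a ribosomal protein, rose by 1.41 and 1.23 after glucose and 1.39 and 1.07 after fructose, and rose in WT late after fructose as well (0.94 and 0.61). UFD1, a Cdc48 partner, fell after both sugars (-0.82 and -0.77).

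Of 14 conjugation genes, 7 rose and 3 fell in tps1 late after glucose (19.9% and 24.5% of all genes), and 4 rose and 5 fell late after fructose (23.4% and 24.0%). The conjugating enzyme gene UBC4 had 2245, 3001 and 1959 FPKM late after glucose and 1285, 1571 and 1788 FPKM late after fructose, against 922 and 855 FPKM in galactose, and UBC4 rose by 1.41 ± 0.18 and 0.79 ± 0.18. UBC5 rose by 1.23 and 1.401, and TOM1, a ligase gene, by 1.17 and 0.50. RAD6 fell by 0.95 after glucose and 0.91 after fructose, and HRD1, a ligase of the endoplasmic reticulum, by 1.03 and 1.11. Under equal sums 0 of 8 assembly genes were higher and 5 lower late after glucose, 3 of 14 ubiquitin and shuttle genes were higher and 6 lower, and 2 of 14 conjugation genes were higher and 9 lower, where 4.34% of all genes were higher and 62.6% lower. Late after fructose these counts were 0 and 4 for assembly, 1 and 6 for ubiquitin and shuttles, and 0 and 10 for conjugation, where 3.29% of all genes were higher and 68.1% lower.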

How the data were processed

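Poly-A RNA was sequenced in 32 libraries. The submitters' processing notes name CASAVA 1.4, TopHat2, Cuffnorm and the sacCer3 build. The authors deposited FPKM for 6717 genes, the unit their file name gives. How Cuffnorm scaled libraries, the annotation, and the use of strand are not given in the sources used here. An entry without a gene ID (0.000245% of the FPKM sum) was left out, and 692 IDs had no match in the RefSeq R64 annotation. Of 34 proteasome genes none overlaps another annotated gene. Coding lengths ran from 471 to 2982 bp. Depth came from the spacing of 1390 low values (92% within 0.1 of a whole fragment, 81.5% in the lowest library) and is an estimate that carries no separate check. The spacing was chosen in each library to bring values near whole fragments, so these shares do not measure how well the estimate fits.

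Values were log2(FPKM + 1). A change is on that scale and understates the change of low genes. The 6203 genes averaging 1 FPKM or more went into limma 3.58.1 (R 4.3.3, variance prior with a trend), and p-values were adjusted by Benjamini-Hochberg in each of 25 comparisons; a call is an adjusted p under 0.05, with a second count at 2-fold. Responses came from a cell-means fit of 32 libraries, strain and sugar differences from differences at matched times, and galactose from 4 libraries. All 34 genes were named, with lists of pathway genes. Members and lists were chosen with earlier results of these data known. Alternatives were other pseudocounts, no filter, median-of-ratios scaling, equal FPKM sums over genes of at least 300 bp, no trend, no matching by time, and each library or time left out. The code was tested on simulated data. Python 3.11.15, numpy 2.4.6, pandas 2.3.3, scipy 1.17.1, and the R package data.table (1.17.8) were used, with matplotlib 3.10.9 for figures.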

Additional observations from a re-analysis of the deposited data

Results flagged for a closer look

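PRE6, an alpha ring gene, had 271.5 FPKM in tps1 at 3 min after fructose, below the 310.6 to 316.3 FPKM of the other early libraries of that course. The gap between them was wide for a group of 4, and it was the only such case among 136 groups of 4 libraries examined, where chance flags about 1 in 20.

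The response differed between strains for 8 proteasome genes late after glucose (RPT6, PRE9, PUP2, PRE3, RPN13, PRE5, RPT4 and PRE2) and for 6 late after fructose (RPT6, PUP2, PRE3, PRE5, RPT4 and PRE2), each time with the larger change in tps1. In tps1 late, 11 genes differed between glucose and fructose (RPN5, RPN9, PUP3, PRE4, RPN13, PRE8, PRE6, RPT5, PUP1, PRE2 and RPN7). All 3 counts come from tests of the difference itself, limma with an adjusted p under 0.05.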

How the results depend on the processing

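Counts are of the 33 genes called. At 2-fold as well, 0 remained in tps1 early after either sugar, 6 (glucose) and 5 (fructose) late, 1 (glucose) and 0 (fructose) late minus early, 0 early and 7 (glucose) or 5 (fructose) late for tps1 minus WT, 3 relative to galactose late after fructose, and 0 for tps1 glucose minus fructose late. Of all genes 7.48% (glucose) and 7.5% (fructose) rose 2-fold in tps1 late. The share of all genes at 2-fold was not counted for the other comparisons, so those counts have no background to be read against. Median-of-ratios scaling gave 8 in tps1 early after glucose. Equal FPKM sums gave 1 in WT late after fructose, 10, 3 and 13 for tps1 minus WT (glucose early, fructose early, fructose late) and 1 for WT glucose minus fructose early. Without matching by time, tps1 minus WT relative to galactose gave 1 (glucose early), 13 (glucose late) and 12 (fructose late), and tps1 glucose minus fructose late gave 5.

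Leaving out each library or time gave 0 to 14 (glucose early), 11 to 23 (glucose late), 0 to 7 (fructose early) and 11 to 20 (fructose late) in tps1, and 0 to 1 in WT glucose early, where RPN12 was called lower only without 3 min. Late minus early gave 7 to 11 (tps1 glucose) and 0 to 8 (tps1 fructose). Tps1 minus WT gave 8 to 26, 12 to 26, 0 to 12 and 14 to 19 in the order glucose early, glucose late, fructose early, fructose late. Relative to galactose it gave 0 to 8 (glucose early), 3 to 18 (glucose late) and 0 to 5 (fructose late). Glucose minus fructose in tps1 gave 0 to 1 early and 7 to 17 late.

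These counts pool both directions, so a similar count does not show that the direction held. With equal FPKM sums 34 of 175 calls over all comparisons had the opposite sign, 5 of them called. All alternatives were run gene by gene for 12 genes (RPN4, PRE2, PUP2, PRE9, PRE5, RPT6, PRE3, RPT4, PRE4, RPT5, PUP1 and RPN1), in up to 6 comparisons each. RPN4 was run in 6 late comparisons whether called or not, and the other genes only in late comparisons that had called them. Of those 420 values 353 kept direction and call, 64 lost the call, 3 gained one, and none of these reversed. None of the genes whose sign turned with equal FPKM sums is among the 12. The lack of reversals therefore follows in part from the choice of genes and does not extend to the others. The causes were not tested. The labels give no replicate numbers to block on. Strain and sugar differences were matched by time, and the counts that moved by more than 1.5 times without matching are given above. Depth limits none of the proteasome genes, whose lowest value was 22.7 FPKM. Limits that do apply are a single course per strain and sugar, and a scale that sets direction for most genes.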
